A study of Mus musculus with 14 samples.

Results

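The genes described here are 10 imprinted genes with known roles in embryonic growth: H19, Igf2, Igf2r, Dlk1, Meg3, Cdkn1c, Peg3, Mest, Plagl1 and Grb10. They were picked by symbol, with earlier results of these data known, and all 10 are among the 55487 genes of the deposited count table. The study measured bulk RNA in cells of the ureteric bud, the epithelial tube that branches into the collecting ducts of the kidney, sorted from mouse embryonic kidneys by their GFP signal. The GFP comes with the Hoxb7-Cre transgene, which acts in the ureteric bud lineage. The study asked which pathways change when these cells lose their centrosomes, the bodies that organise microtubules, which need the protein Cep120 to form. There were 5 libraries labelled Cep120 KO, numbered 2, 4, 5, 6 and 7, and 3 controls of the same line. There were also 3 libraries labelled Pkd1 KO, for a gene mutated in polycystic kidney disease, and 3 controls of that line. All 6 controls have WT as their genotype label but het in their titles, so a control may carry a single mutant allele. The protocol gives the stage E13.5 for wildtype and Hoxb7-Cep120 kidneys, and the Pkd1 libraries are labelled only as embryonic. The labels do not say whether replicates are separate embryos or pools, so the tests measure the spread between libraries, which may be technical.

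An imprinted gene is expressed mainly from the copy inherited from 1 parent, because DNA methylation laid down in egg or sperm marks the parental copies differently. Several of these genes act on a shared growth axis: Igf2 encodes a growth factor, Igf2r a receptor that takes it up for degradation, and Grb10 an adaptor that dampens insulin and IGF receptor signalling. H19, Igf2r, Meg3, Cdkn1c and Grb10 are known as maternally expressed in most embryonic tissues of the mouse, and Igf2, Dlk1, Peg3, Mest and Plagl1 as paternally expressed. Read counts per gene do not separate the parental copies, so the values below say nothing on which copy was read.

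The promoters of the members that rose most, Peg3 and Meg3, and of those whose annotated start sites come up in the transcript results, Igf2, Mest and Plagl1, are shown first. Each sequence is the 250 bases before a RefSeq transcription start in the GRCm38.p6 assembly, read 5′ to 3′ on the strand of the gene. Capitals mark TGCCGC, the hexamer recognised by ZFP57, a zinc finger protein that keeps methylation at imprinted regions, on either strand (GCGGCA is its reverse complement).
Peg3, chr7:6730420-6730669, minus strand: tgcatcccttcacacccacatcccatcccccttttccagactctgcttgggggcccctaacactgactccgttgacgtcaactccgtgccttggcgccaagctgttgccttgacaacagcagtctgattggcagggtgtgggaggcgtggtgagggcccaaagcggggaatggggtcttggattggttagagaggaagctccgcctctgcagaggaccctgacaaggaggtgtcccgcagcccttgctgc
Meg3, chr12:109540746-109540995, plus strand: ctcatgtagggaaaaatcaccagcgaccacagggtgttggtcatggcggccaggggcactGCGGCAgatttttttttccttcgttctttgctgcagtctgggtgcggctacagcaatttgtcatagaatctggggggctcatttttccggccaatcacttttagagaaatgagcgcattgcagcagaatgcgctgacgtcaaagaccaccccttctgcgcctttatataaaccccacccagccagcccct
Igf2, upstream start, chr7:142666817-142667066, minus strand: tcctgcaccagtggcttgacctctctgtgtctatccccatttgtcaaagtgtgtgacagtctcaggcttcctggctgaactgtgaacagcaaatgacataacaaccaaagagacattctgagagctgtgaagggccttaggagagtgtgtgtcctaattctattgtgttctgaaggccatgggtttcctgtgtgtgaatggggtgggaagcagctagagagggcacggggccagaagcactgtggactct
Igf2, downstream start, chr7:142657497-142657746, minus strand: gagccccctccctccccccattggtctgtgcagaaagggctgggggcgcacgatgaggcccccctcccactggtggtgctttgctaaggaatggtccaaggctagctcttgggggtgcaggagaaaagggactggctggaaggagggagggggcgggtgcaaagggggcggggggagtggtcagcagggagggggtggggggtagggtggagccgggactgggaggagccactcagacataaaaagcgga
Mest, chr6:30737800-30738049, plus strand: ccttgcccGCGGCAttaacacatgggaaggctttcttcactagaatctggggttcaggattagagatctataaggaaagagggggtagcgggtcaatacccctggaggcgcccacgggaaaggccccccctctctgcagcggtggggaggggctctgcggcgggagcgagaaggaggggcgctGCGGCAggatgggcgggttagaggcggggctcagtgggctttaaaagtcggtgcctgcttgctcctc
Plagl1, chr10:13090582-13090831, plus strand: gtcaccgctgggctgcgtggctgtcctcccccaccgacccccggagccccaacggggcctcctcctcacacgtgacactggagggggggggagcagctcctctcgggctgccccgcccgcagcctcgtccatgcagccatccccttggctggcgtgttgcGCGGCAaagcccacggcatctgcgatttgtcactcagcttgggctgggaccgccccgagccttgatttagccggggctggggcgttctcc

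Windows were at hand for 8 of the 10 genes, 15 windows in all, of which 2 for Mest share most of their bases. The hexamer was found in 4 of these windows, from the 3 genes Meg3, Mest and Plagl1, against 8.68% of 32851 windows of the same length across the genome. The Mest window holds it at 2 places and the Meg3 and Plagl1 windows at 1 each. The Plagl1 window shown holds 19 CpG dinucleotides, Mest 14, Meg3 10 and Peg3 8, beside a median of 6 over all windows of the genome. The 4 Igf2 windows hold 1, 10, 22 and 6 from the most upstream to the most downstream, of which the first and last are shown, and 12 of the 15 windows of the members lie above the median. These are matches of letters, and no methylation or binding was measured here.

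Total counts ran from 11347628 to 27967540 per library, and levels below are CPM (counts scaled to library size, here with TMM factors) unless TPM (scaled to transcript length as well) is named. Pkd1 itself was at 2.39 to 2.68 CPM in the Pkd1 KO libraries and at 3.34 to 4.6 CPM in their controls. For Cep120, the libraries labelled as its KO were no lower than their controls, at 7.87 to 21.2 CPM against 6.41 to 10.6 CPM. The deleted stretch of the gene is not given in the sources used here, so a gene count may not check the label, and these libraries are called by their label throughout. Ureteric bud markers (18 genes) summed to 4150 to 4770 CPM in 12 libraries, but to 1810 and 2490 CPM in labelled Cep120 KO libraries 6 and 7. In both of these, 12 of the 18 genes were below every control of the line, 2 (Pax2 and Wnt7b) above and 4 neither. Calb1, the largest part of the sum, was at 1580 to 1790 CPM in these controls. It was at 874 and 942 CPM in libraries 4 and 5, whose sums were not lower. Nephron progenitor markers (12 genes) summed to 1030 and 771 CPM in libraries 6 and 7 and to 40.1 to 76.1 CPM elsewhere. Six2, which defines these progenitors, was at 127 and 86.1 CPM in libraries 6 and 7 and at 0.853 to 1.18 CPM in libraries 2, 4 and 5. Of the 12 genes 10 were above every control of the line in both libraries 6 and 7, and Cited1 and Tmem100 were not. Stroma markers (14 genes) summed to 176 and 181 CPM in libraries 6 and 7, to 83.1 CPM in control 2 of the Cep120 line and to 4.56 to 84.1 CPM in all controls and Pkd1 KO libraries. Of these 14 genes 7 were above every control of the line in both libraries 6 and 7, among them Meis1 (63.9 and 55.5 CPM), while Twist1 was below every control (0.86 and 0.955 against 2.17 to 3 CPM) and 6, Pdgfra, Pdgfrb and Lum among them, were not outside the controls in both. In the Cep120 line erythroid markers (8 genes) summed to 493, 7180 and 3620 CPM in controls 1, 2 and 3 and to 5.24 to 1090 CPM in the labelled KO libraries, macrophage and leukocyte markers (10 genes) to 25.2 to 60.7 and 5.18 to 31.6 CPM, and endothelial markers (10 genes) to 8.16 to 28.7 and 2.23 to 72.6 CPM, highest in library 7. The TMM factors of labelled Cep120 KO libraries 4, 5, 6 and 7 were 1.15 to 1.32, and those of the other 10 libraries 0.862 to 0.966. Libraries 4 and 5 were closer to each other (mean chi-square per gene 5.12, where 1 is sampling noise) than any other pair within a group (15.2 to 372), and they were kept as 2 libraries.

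**Figure D1:**
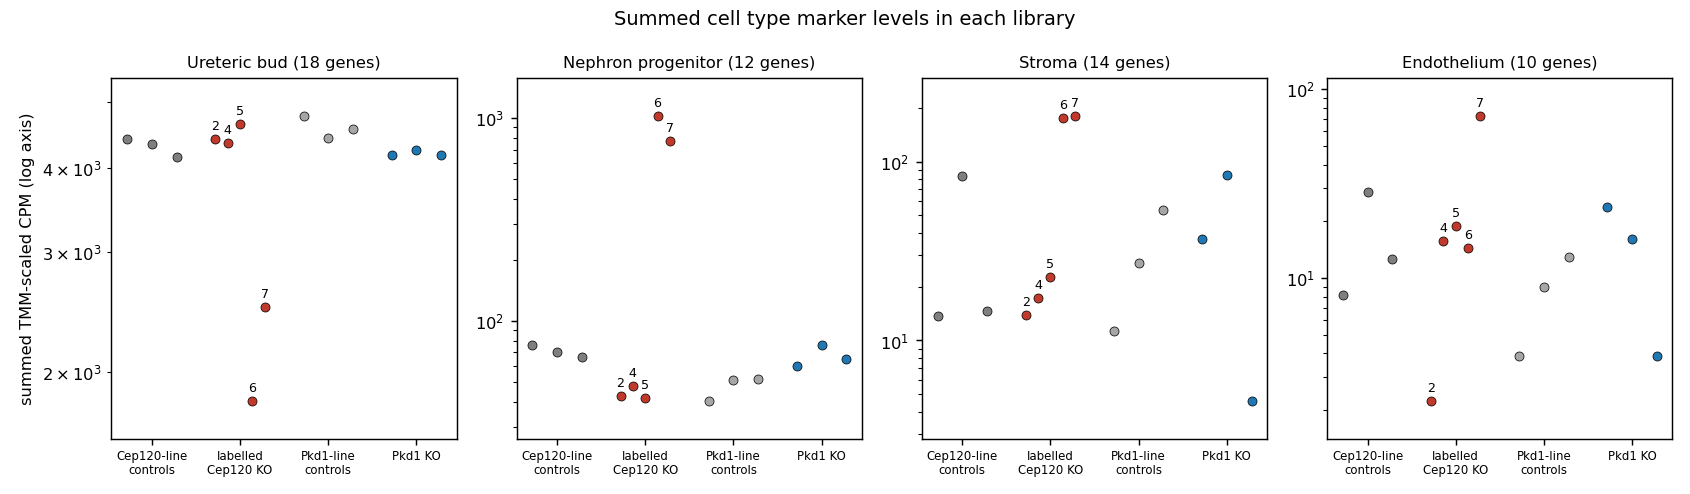
Summed TMM-scaled CPM of 4 lists of cell type markers (log axis) in each of the 14 libraries, by group, with the numbers of the labelled Cep120 KO libraries. Libraries 6 and 7 are lowest for ureteric bud markers (1810 and 2490) and highest for nephron progenitor (1030 and 771) and stroma markers (176 and 181).

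Compared per length, the members covered a wide range of levels in these cells. In the controls of the Cep120 line Mest, which encodes an enzyme of the alpha/beta hydrolase fold, was highest at 471 ± 138 TPM (SD, n = 3). H19, a non-coding RNA, was at 104 ± 13.7 TPM and its neighbour Igf2 at 103 ± 20.7 TPM (SD, n = 3), a gap smaller than either spread. Grb10 followed at 44.4 ± 9.54 TPM and Cdkn1c, an inhibitor of cyclin-dependent kinases, at 26.3 ± 4.47 TPM (SD, n = 3). Plagl1, a zinc finger transcription factor, was at 6.79 ± 0.522 TPM, Peg3, a large zinc finger protein, at 4.49 ± 0.391 TPM and Igf2r at 3.31 ± 0.547 TPM (SD, n = 3). Meg3, a non-coding RNA, was at 1.94 ± 1.48 TPM and Dlk1, a transmembrane protein related to Notch ligands, at 0.763 ± 0.958 TPM (SD, n = 3), which overlap. The order was the same in the Pkd1-line controls. In the Pkd1 KO libraries Igf2 (143 ± 19 TPM) stood above H19 (101 ± 11.2 TPM; SD, n = 3 each), and in the labelled Cep120 KO libraries Meg3 moved from rank 9 to rank 6, at 36.3 ± 44.1 TPM (SD, n = 5), a mean below its own SD.

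In the comparison of the labelled Cep120 KO libraries with their controls, H19, Igf2, Meg3 and Peg3 rose, no member fell, and 6 did not pass the test. The test was edgeR's quasi-likelihood test over 16876 genes with Benjamini-Hochberg adjustment at 0.05; all 10 members passed its filter on low counts. Among all genes tested 14.7% were called, 8.4% as higher and 6.26% as lower. The members' median log2 fold change was 1.04, and 0.116 over all genes. The 10 members were chosen with earlier results of these data known, so neither their calls nor this median is independent support. All 10 members overlapped between the groups, and 15.2% of all genes did not.

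**Figure D2:**
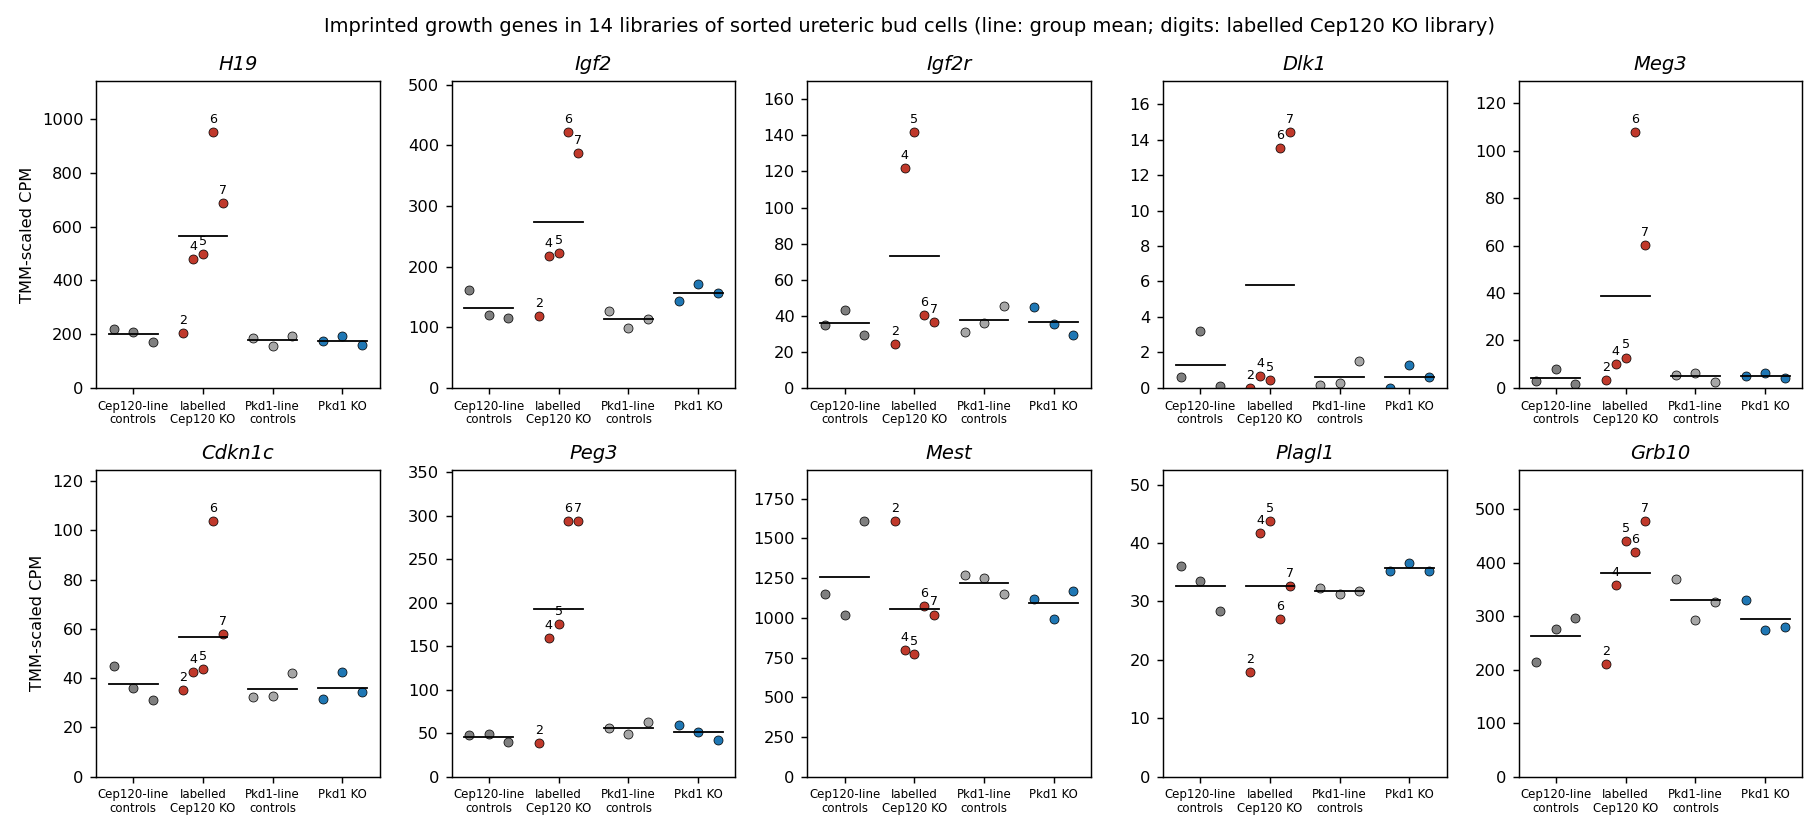
TMM-scaled CPM of the 10 genes in each of the 14 libraries (linear axes from 0, 1 panel per gene), with group means as lines and the numbers of the labelled Cep120 KO libraries. Library 2 sits near the controls for H19, Igf2, Meg3 and Peg3 while libraries 4 to 7 sit above them; Igf2r is high in 4 and 5 only, and Dlk1 in 6 and 7.

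H19 lies at chr7:142575529-142578143 on the minus strand (GRCm38, GENCODE M21), downstream of Igf2, and its transcript carries a microRNA precursor. It was at 219.2, 209.1 and 169.5 CPM in the controls, and at 204.1, 479.8, 498.4, 951 and 686.1 CPM in labelled Cep120 KO libraries 2, 4, 5, 6 and 7. Library 2 lay among the controls, and the other 4 lay at 2.41 to 4.77 times the control mean. The log2 fold change was 1.50 (SE 0.35) with an adjusted p of 0.0299 by edgeR.

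Igf2 lies at chr7:142650766-142666816 on the minus strand. It was at 160.9, 120.6 and 115.1 CPM in the controls, and at 118.2, 218.3, 222.7, 421.9 and 387.6 CPM in libraries 2, 4, 5, 6 and 7. Again library 2 lay within the control range, and libraries 6 and 7, where nephron progenitor markers summed to 1030 and 771 CPM, were highest. The log2 fold change was 1.05 (SE 0.33) with an adjusted p of 0.0469 by edgeR. Without libraries 6 and 7 it was 0.50, with an adjusted p of 0.157, and with offsets for transcript length and GC content it was 0.47, with an adjusted p of 0.222. In bulk RNA, fewer cells of a type and less RNA per cell cannot be told apart.

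Meg3 (chr12:109541001-109571726, plus strand) is transcribed from the same imprinted cluster as Dlk1. In the controls it was at 2.878, 7.802 and 1.596 CPM, and in libraries 2, 4, 5, 6 and 7 at 3.278, 9.971, 12.81, 107.8 and 60.24 CPM. Libraries 4 and 5 stood just above the highest control, control 2, and libraries 6 and 7 far above it. The log2 fold change was 3.23 (SE 0.98) with an adjusted p of 0.0432 by edgeR, and 1.07 with an adjusted p of 0.238 without libraries 6 and 7. Control 2 and libraries 6 and 7 were also the libraries of this line with the highest summed stroma markers (83.1, 176 and 181 CPM, against 13.7 to 22.7 CPM in the others), though only 7 of the 14 stroma genes were above every control in libraries 6 and 7. Control 2 also had the highest erythroid sum of the line (7180 CPM), and libraries 6 and 7 the highest nephron progenitor sums; the part of other cells in the Meg3 level was not tested.

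Dlk1 (chr12:109452823-109463336, plus strand) varied most among the members between libraries. It was at 0.5874, 3.203 and 0.1228 CPM in the controls and at 0, 0.6932, 0.4516, 13.54 and 14.42 CPM in libraries 2, 4, 5, 6 and 7. The 0 in library 2 allows up to 3 counts, or 0.197 CPM, by counting error alone. The high values were again those of libraries 6 and 7, and among the controls that of control 2. The log2 fold change of 2.13 (SE 1.53) did not pass the test (adjusted p = 0.345, edgeR), and without libraries 6 and 7 its sign turned, at -1.75.

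Peg3 (chr7:6703892-6730431, minus strand) had the smallest p of the members. Its level was 47.64, 48.5 and 40.14 CPM in the controls and 38.68, 159.3, 175.6, 294.2 and 294 CPM in libraries 2, 4, 5, 6 and 7. Library 2 was below all 3 controls, and the other 4 were 3.51 to 6.48 times the control mean. The log2 fold change was 2.08 (SE 0.47) with an adjusted p of 0.029 by edgeR, and it was 1.45 (adjusted p = 0.047) without libraries 6 and 7.

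Igf2r (chr17:12682406-12769664, minus strand) followed another pattern over the libraries. It was at 35.12, 43.07 and 29.46 CPM in the controls and at 24.52, 121.9, 141.8, 40.2 and 36.33 CPM in libraries 2, 4, 5, 6 and 7. Only libraries 4 and 5 stood above the controls, at 3.4 and 3.95 times their mean. The log2 fold change of 1.02 (SE 0.49) did not pass (adjusted p = 0.159, edgeR), and without libraries 4 and 5 it was -0.09. The kit does not mark strand, so reads of Igf2r and of its antisense neighbour Airn cannot be told apart where they overlap; this also holds for Igf2 and Igf2os.

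The growth inhibitors Cdkn1c and Grb10 did not pass the test. Cdkn1c (chr7:143458339-143461050, minus strand) was at 45.05, 35.97 and 31.24 CPM in the controls and at 35.21, 42.44, 43.8, 103.9 and 57.98 CPM in libraries 2, 4, 5, 6 and 7. Libraries 6 and 7 were above the controls and the other 3 among them (log2 fold change 0.60, SE 0.30; adjusted p = 0.182, edgeR). Grb10 (chr11:11930508-12038683, minus strand) was at 215.3, 276.9 and 297.4 CPM in the controls and at 209.9, 358.4, 441.7, 420 and 478.5 CPM in libraries 2, 4, 5, 6 and 7. Its 4 libraries other than 2 lay above all controls (log2 fold change 0.54, SE 0.23; adjusted p = 0.122, edgeR).

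Mest (chr6:30723547-30748465, plus strand) and Plagl1 (chr10:13060504-13131694, plus strand) had fold changes near 0. Mest was at 1152, 1016 and 1611 CPM in the controls and at 1608, 797.1, 771.3, 1074 and 1021 CPM in libraries 2, 4, 5, 6 and 7. Libraries 4 and 5 were below all controls and library 2 close to the highest one (log2 fold change -0.26, SE 0.23; adjusted p = 0.461, edgeR), although in deposited TPM, which lacks TMM scaling, the group mean was above that of the controls (601 against 471). Plagl1 was at 36.06, 33.47 and 28.42 CPM in the controls and at 17.96, 41.64, 43.8, 26.98 and 32.7 CPM in libraries 2, 4, 5, 6 and 7 (log2 fold change -0.00093, SE 0.24; adjusted p = 0.998, edgeR). For Plagl1 the labelled KO libraries lay on both sides of the controls. In deposited TPM the group mean was above that of the controls for Plagl1 too (11.2 against 6.79). The same held for Cdkn1c (70.3 against 26.3), Grb10 (141 against 44.4) and every other member. The fold changes given here are thus those of the TMM-scaled counts, and the part of scaling in this gap was not tested.

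All 4 genes lost their calls when any of the 3 controls was left out (adjusted p 0.0926 to 0.155), and 2, 6 and 3 genes in all were then called without controls 1, 2 and 3, in place of 2475. The log2 fold changes were then still 1.39 to 1.57 for H19, 0.95 to 1.21 for Igf2, 2.85 to 4.11 for Meg3 and 1.99 to 2.13 for Peg3. The calls of the 4 were also lost without labelled KO library 6 (314 genes called in all) or 7 (8 genes; adjusted p 0.0507 to 0.0927 for the members), and when the Cep120 line was fitted alone (0.133 to 0.158). With offsets for transcript length and GC content, at most 1 of the 4 was still called. Igf2 and Meg3 were not called by limma-trend (adjusted p = 0.0671 and 0.0691). Without library 2 there were 7 members called, beside 5719 genes in all: Igf2r (1.24, adjusted p = 0.0407) and Grb10 (0.69, adjusted p = 0.00345) also rose and Mest fell (-0.46, adjusted p = 0.0453), by edgeR.

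H19 and Igf2 are known to share enhancers and a common imprinting control region, and the number of H19 reads per Igf2 read was compared. It was 1.363, 1.734 and 1.473 in the Cep120-line controls and 1.727, 2.198, 2.238, 2.254 and 1.77 in labelled KO libraries 2, 4, 5, 6 and 7. In the Pkd1 line it was 1.449, 1.586 and 1.701 in controls 1, 2 and 3 and 1.209, 1.128 and 1.007 in Pkd1 KO libraries 1, 2 and 3. The ratio was thus above the control mean in all 5 labelled Cep120 KO libraries, with an overlap at control 2, and below every control in all 3 Pkd1 KO libraries. The mean log2 ratio was higher by 0.417 in the labelled Cep120 KO libraries (exact two-sided permutation p = 0.0536, Benjamini-Hochberg adjusted 0.15 over 3 comparisons). In the Pkd1 KO libraries it differed by -0.503 (exact two-sided permutation p = 0.1, the smallest 3 against 3 libraries allow; adjusted 0.15). The control groups differed by -0.0557 (exact two-sided permutation p = 0.8, adjusted 0.8). Each of the 4 labelled Cep120 KO libraries with more H19 than every control also had more Igf2 than every control.

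**Figure D3:**
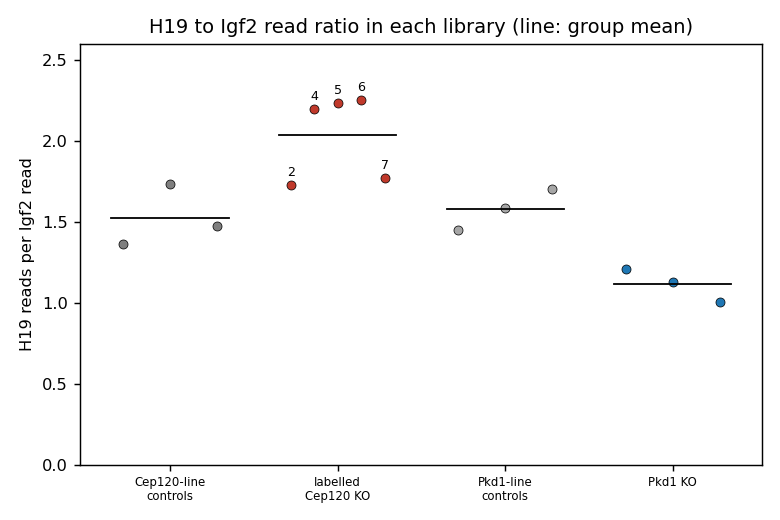
H19 reads per Igf2 read (linear axis from 0) in each of the 14 libraries, by group, with group means as lines. The 3 Pkd1 KO libraries (1.007 to 1.209) lie below every control (1.363 to 1.734), and labelled Cep120 KO libraries 4, 5 and 6 (2.198 to 2.254) lie above them all.

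Transcript estimates were used where the deposited transcript table held at least 80% of the gene's count, which kept Igf2, Cdkn1c, Mest and Plagl1. For Igf2, Igf2-203 begins at the upstream start shown above and ends soon after the coding exons, while Igf2-208 is a non-coding transcript of 2 exons in the last stretch of the gene. Igf2-203 held 26.1, 17.3 and 23.2% of the Igf2 transcript counts in the Cep120-line controls and 24.9, 13.2, 13.8, 8.4 and 11.4% in labelled KO libraries 2, 4, 5, 6 and 7. Igf2-208 held 19.3, 30.4 and 19.6% in these controls and 13, 38.7, 41.9, 41.8 and 36.9% in libraries 2, 4, 5, 6 and 7. Libraries 4 to 7 thus had less Igf2-203 and more Igf2-208 than every control of the line, and library 2 did not. In the Pkd1 line the shift ran the other way: Igf2-203 held 22.4, 19.1 and 20.5% in the controls and 27.2, 31.5 and 23.6% in the Pkd1 KO libraries, and Igf2-208 had a mean of 24.3% in the controls and 16.8% in the KO libraries with no overlap. Shares were worked out for the members only, so how often groups separate in this way over all transcripts is not known here. These shares are estimates split over overlapping transcripts and carry no test. They cannot tell a change of start site from a change of read coverage along the gene.

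**Figure D4:**
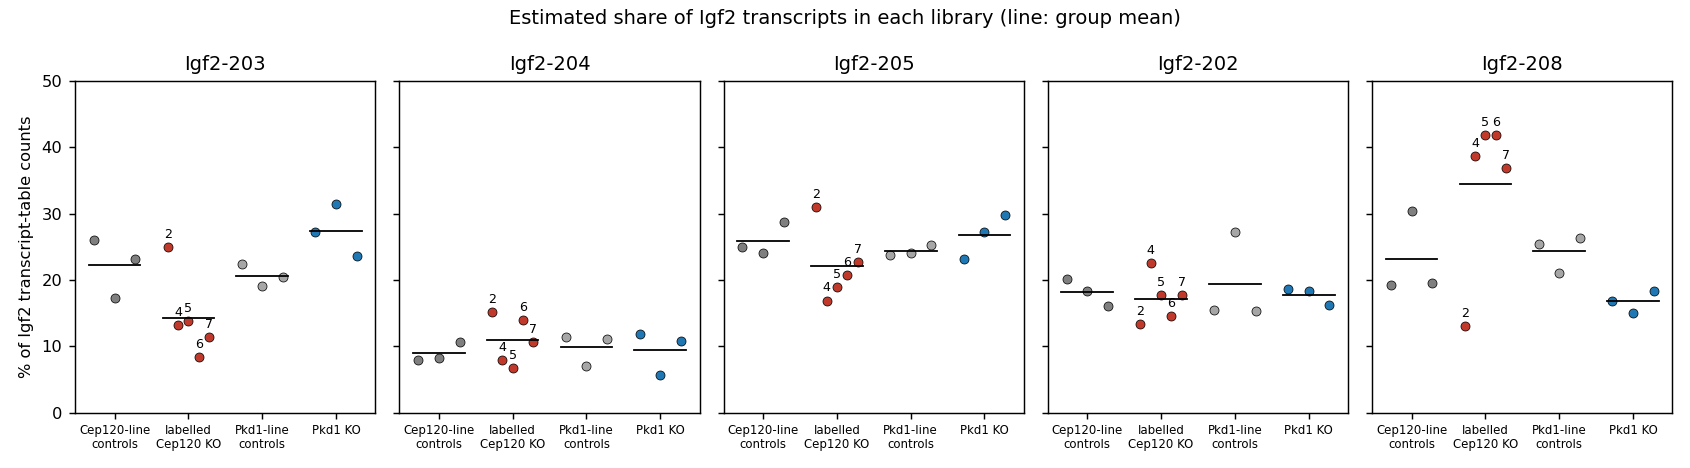
Estimated share (%) of 5 Igf2 transcripts among the Igf2 counts of the transcript table in each library, by group, with group means as lines. Igf2-203 is lower and Igf2-208 higher in labelled Cep120 KO libraries 4 to 7 than in the controls, and the reverse holds for the 3 Pkd1 KO libraries.

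Mest was held almost wholly by Mest-211, which starts right after the Mest window shown above and had 95.4 to 96.1% of the counts as a group mean, and Plagl1 by Plagl1-202 (94.9 to 98%). The Cdkn1c transcripts differed between libraries: Cdkn1c-201 held 18.3, 13.8 and 11% in labelled Cep120 KO libraries 2, 4 and 5 but 61.6 and 63.9% in libraries 6 and 7, while its share in the controls of the line was 5.9 to 36.8%. The same 2 libraries had the high Six2 values.

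In the Pkd1 KO libraries no member passed the test, and neither did any other gene (0% of 16876). No member had an unadjusted p under 0.05 by edgeR, against 259 genes in all; DESeq2 called 5 genes and limma-trend 0, with no member among them. The members' median log2 fold change was -0.00406, beside -0.0053 over all genes. Igf2 was at 127.3, 98.47 and 113.4 CPM in controls 1, 2 and 3 and at 143.3, 170.6 and 157.1 CPM in Pkd1 KO libraries 1, 2 and 3. Every KO library was above every control, by a log2 fold change of 0.47 (SE 0.35) that did not pass (adjusted p = 1, edgeR). Plagl1 was at 32.25, 31.21 and 31.77 CPM in the controls and at 35.16, 36.65 and 35.26 CPM in the KO libraries, also without overlap (0.17, SE 0.26; adjusted p = 1, edgeR). For 4.88% of all genes tested every Pkd1 KO library lay above every control. H19 was at 184.5, 156.1 and 192.9 CPM in the controls and at 173.3, 192.4 and 158.2 CPM in the KO libraries, which overlap (log2 fold change -0.03, SE 0.37). The other 7 members also overlapped, with log2 fold changes from -0.16 (Grb10 and Mest) to 0.10 (Dlk1).

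**Figure D5:**
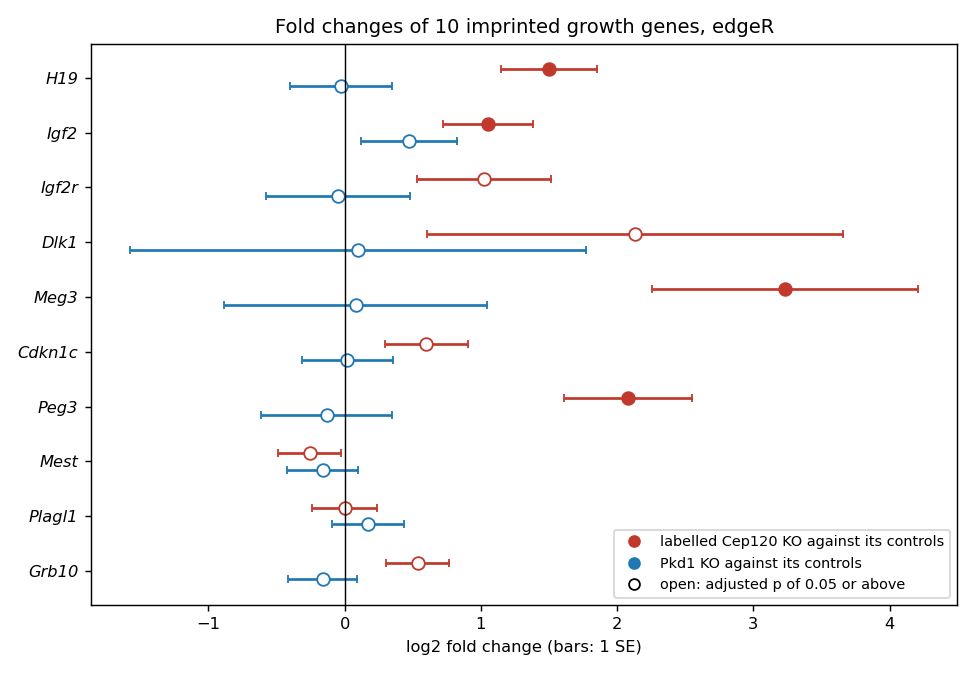
Log2 fold change (bars, 1 SE) of the 10 genes in the labelled Cep120 KO and the Pkd1 KO libraries, each against the 3 controls of its line; filled points have an adjusted p under 0.05 by edgeR. H19 (1.50), Igf2 (1.05), Meg3 (3.23) and Peg3 (2.08) are filled for the Cep120 line and no gene is for the Pkd1 line.

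The difference between the 2 effects, fitted in the same model, passed for no member and no gene (0%, edgeR), although 3 members and 3436 genes had an unadjusted p under 0.05. The smallest p among the members belonged to Peg3 (2.21, SE 0.66; adjusted p = 0.176) and H19 (1.53, SE 0.51; adjusted p = 0.176), and the largest difference to Meg3 (3.15, SE 1.33; adjusted p = 0.211). For Igf2 it was 0.58 (SE 0.48; adjusted p = 0.508, edgeR). DESeq2 called 1 member, Peg3 (adjusted p = 0.0345), and limma-trend 0. Between the control groups of the 2 lines no member passed by edgeR, limma-trend or DESeq2, and none had an unadjusted p under 0.05, beside 0.124% of all genes called. Peg3 was lower in every control of the Cep120 line than in every Pkd1-line control (-0.30, SE 0.48; adjusted p = 0.998, edgeR), as 9.99% of all genes were. These controls are those of the comparisons above.

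Among 49 other genes listed as imprinted, 42 could be tested. The list is by name and not by tissue, and whether each gene is imprinted in ureteric bud cells was not measured here. In the labelled Cep120 KO libraries 2 rose (Ppp1r9a and Kcnq1ot1) and 6 fell (Snrpn, Asb4, Mcts2, Commd1, Copg2 and Gatm), with a median log2 fold change of 0.03. The 8 called genes are 19% of those tested, beside 14.7% of all genes. Mcts2, a retrogene for a translation factor, was at 52.1, 40.73 and 47.88 CPM in the controls and at 36.78, 25.22, 23.15, 20.53 and 21.08 CPM in libraries 2, 4, 5, 6 and 7 (-0.89, SE 0.19; adjusted p = 0.029, edgeR). All 5 labelled KO libraries were below all 3 controls. The same held for Commd1, a regulator of copper handling and NF-kB, at 164.8, 143 and 127.8 CPM against 118.1, 79.87, 76.36, 44.6 and 43.33 CPM (-1.004, SE 0.27; adjusted p = 0.032, edgeR). Gatm, an enzyme of creatine synthesis, likewise went from 21.56, 20.12 and 27.44 CPM to 17.64, 12.64, 10.02, 6.449 and 7.005 CPM (-1.10, SE 0.29; adjusted p = 0.0315, edgeR). Mcts2 is a retrocopy of Mcts1, Zrsr1 lies within an intron of Commd1, and Kcnq1ot1 is antisense to Kcnq1, so the reads given to these genes are uncertain.

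Of 37 genes of the IGF system 33 were tested, and 5 rose (Igfbp5, Igf2bp2, Pik3ca, Tsc1 and Tsc2) and 0 fell, with a median log2 fold change of 0.50. That is 15.2% of those tested, a share near the 14.7% called over all genes in either direction. As higher, 8.4% of all genes were called. The list was chosen with earlier results of these data known, so its share is not independent support. Igf2bp2, a protein that binds Igf2 mRNA, was at 28.72, 34.45 and 28.3 CPM in the controls and at 34.48, 117.2, 113.1, 90.42 and 103.5 CPM in libraries 2, 4, 5, 6 and 7 (1.59, SE 0.31; adjusted p = 0.029, edgeR). Igfbp5, a secreted protein that binds IGFs, was at 12.1, 16.43 and 7.243 CPM and at 7.277, 64.62, 54.6, 126.1 and 107.6 CPM (2.59, SE 0.64; adjusted p = 0.0305, edgeR). Pik3ca, the catalytic subunit of a PI3 kinase, was at 8.102 to 10.14 CPM in the controls and at 14.36 to 20.9 CPM in the labelled KO libraries, with no overlap (0.98, SE 0.25; adjusted p = 0.0313, edgeR). Library 2 was near the controls for Igf2bp2 and Igfbp5 and above them for Pik3ca.

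Of 21 factors that set, keep or read imprinted methylation or that insulate imprinted domains, 20 were tested. Among them 7 rose (Zfp57, Zfp445, Dnmt1, Dnmt3a, Ehmt1, Tet3 and Arid4a) and 0 fell, with a median log2 fold change of 0.86. That is 35% called, beside 14.7% of all genes called and 8.4% called as higher. This list, like the other 2, was chosen with earlier results of these data known, so its share is not independent support. Dnmt1, the methyltransferase that copies methylation at replication, was at 42.06, 46.15 and 34.86 CPM in the controls and at 31.53, 188, 201, 113.7 and 143.5 CPM in libraries 2, 4, 5, 6 and 7 (1.72, SE 0.45; adjusted p = 0.0318, edgeR). Tet3, which oxidises methylcytosine, was at 11.63, 12.61 and 11.23 CPM and at 9.9, 35.03, 43.02, 56.07 and 46.14 CPM (1.69, SE 0.41; adjusted p = 0.0305, edgeR). Arid4a, a chromatin protein, was at 2.762 to 3.531 CPM in the controls, at 2.36 CPM in library 2 and at 12.32 to 35.4 CPM in the other 4 (2.59, SE 0.62; adjusted p = 0.0299, edgeR). In the order other imprinted genes, IGF system and control factors, the 3 lists had 0, 0 and 0 called genes without any one of the 3 controls or without library 7, 1, 1 and 0 without library 6, 2, 3 and 2 without library 5, 4, 5 and 4 without library 4, and 13, 13 and 15 without library 2. The count over all genes moved the same way, to 2, 6 and 3 without controls 1, 2 and 3, 8 without library 7, 314 without 6, 1296 without 5, 1557 without 4 and 5719 without 2. Dnmt1, Tet3 and Arid4a were below every control in library 2 and above every control in libraries 4 to 7. The 4 libraries with TMM factors of 1.15 to 1.32 are the same 4, and with offsets for transcript length and GC content 0, 1 and 0 genes of the 3 lists were called, beside 229 genes in all; the part of length and GC content in these lists beyond that was not tested.

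In the Pkd1 KO libraries 0 genes of the 3 lists passed by edgeR, DESeq2 or limma-trend, and 0 had an unadjusted p under 0.05. The smallest p in each list belonged to Phlda2 (-0.84, SE 0.54), an inhibitor of placental growth, Tsc2 (-0.50, SE 0.26), a brake on mTOR signalling, and Ezh2 (-0.15, SE 0.22), a histone methyltransferase, each with an adjusted p of 1 by edgeR. Tsc2 was at 28.35, 22.56 and 24.91 CPM in the controls and at 17.39, 18.54 and 17.84 CPM in the Pkd1 KO libraries.

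Over the 14 libraries, 6 members had an SD of log2 CPM of at least 0.5, and the genes with the most similar centred profiles were looked up for each. The measure was the root mean square difference in log2 CPM, in which 0 is an identical profile. For H19 these were Ncor1 (0.12) and Zc3h4 (0.17), for Igf2 Mapkap1 (0.155) and Rbms1 (0.16), and for Peg3 Pnn (0.115) and Luzp1 (0.137). For Igf2r they were Arhgap24 (0.216) and Mrtfb (0.217), for Meg3 Cdc42bpg (0.474) and Cald1 (0.481), and for Dlk1 Ifi27 (0.653) and Rora (0.835). Among the members, H19 was closest to Peg3 (0.305), Igf2 to Cdkn1c (0.331), and H19 to Igf2 stood at 0.348. The profiles of Meg3 and Dlk1 had no neighbour as close as those of H19, Igf2 and Peg3. The measure is not scaled to a gene's own spread, however. The SD of log2 CPM was 1.66 for Meg3 and 2.27 for Dlk1, against 0.647 to 1.06 for H19, Igf2 and Peg3. The part of spread and low counts in these distances was not tested.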

How the data were processed

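RNA of GFP-sorted ureteric bud cells was made into cDNA with a SMARTer Ultra Low kit, per the labels' protocols. The authors deposited estimated counts per gene and per transcript, TPM and CPM; the submitters' processing notes name DRAGEN and mm9, with no other setting given there. Of 55774 lines, 287 repeated genes were dropped, and counts were rounded.

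R 4.3.3 with edgeR 4.0.16 fitted all 14 libraries with 4 group means (filterByExpr at 10, TMM, 16876 genes, 10 residual degrees of freedom, no covariates). Calls used a Benjamini-Hochberg threshold of 0.05. The H19 to Igf2 ratio was tested by exact permutation over libraries. Alternatives used DESeq2 1.42.0, limma 3.58.1, other scaling, and left-out libraries. The scripts were tested on simulated data. Positions come from GENCODE M21 (GRCm38) and sequences from RefSeq (GRCm38.p6), not mm9. The 10 genes and all lists were chosen with earlier results of these data known. All 10 genes are named, with the 3 smallest adjusted p per list (the smallest p where none passed) and the 2 nearest profiles per gene of SD 0.5 or more; further called genes of a list were named after their values were seen. Counts carry no molecular identifiers, so floors cover counting error only.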

Additional observations from a re-analysis of the deposited data

Results flagged for a closer look

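The mean H19 to Igf2 read ratio moved in opposite directions in the 2 mutant lines, and the difference between the 2 effects was computed. The log2 ratio differed from the controls by 0.417 in the labelled Cep120 KO libraries and by -0.503 in the Pkd1 KO libraries. Neither effect passed by itself (exact two-sided permutation p = 0.0536 and 0.1, adjusted 0.15 for each). The difference between these effects was 0.92. Its exact two-sided permutation p was 0.00268 over all 1120 ways to assign the group labels within the lines. The null of this shuffling is no effect in either line, so the p does not test whether the effects are equal. Labelled Cep120 KO libraries 4 and 5, the closest pair within a group, were counted as 2 libraries. This comparison was chosen after the ratios had been seen, so the p is not independent support. The difference was 0.843 to 1.02 when any one of the 14 libraries was left out (exact permutation p 0.00238 to 0.00714). With the deposited TPM in place of reads it was 1.14 (exact permutation p = 0.00268). These settings use the same libraries that led to the choice, so they are no check on it.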

How the results depend on the processing

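The count of members called in the labelled Cep120 KO libraries (4) was 2 by limma-trend and without libraries 6 and 7, 1 with length and GC offsets, 0 in a separate fit of the line, 0 when library 2 stood alone as the KO group, and 0 to 7 when each library was left out in turn. The counts called among other imprinted genes (8), IGF system genes (5) and imprinting control factors (7) were 0 to 13, 0 to 13 and 0 to 15 with a library left out. Other imprinted genes gave 5 by limma-trend, 0 in the separate fit, with offsets and with library 2 alone, 4 without libraries 6 and 7, 3 with libraries 4 and 5 summed and 13 against all 6 controls. IGF system genes gave 0 in the separate fit and with library 2 alone, 1 with offsets, 3 without libraries 6 and 7 and with 4 and 5 summed, and 8 against all 6 controls. Imprinting control factors gave 4 by limma-trend, 11 by DESeq2 and against all 6 controls, 0 in the separate fit, with offsets and with library 2 alone, 3 without libraries 6 and 7 or without 4 and 5, and 2 with 4 and 5 summed. In the fit with library 2 alone, its spread was taken from the other groups. All genes called (2475) came to 4193 by DESeq2, 0 in the separate fit, 229 with offsets, 1028 without libraries 6 and 7, 1400 with 4 and 5 summed, 5 with library 2 alone and 2 to 5719 with a library left out. The difference of effects called 1 member by DESeq2 and 0 to 3 with a library left out. The cause was not tested.

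The sign turned, by log2 fold change, without libraries 6 and 7 for Dlk1 (-1.75) and Plagl1 (0.0791) and without 4 and 5 for Igf2r (-0.0879). With library 2 alone it turned for Igf2 (-0.14), Igf2r (-0.53), Dlk1 (-7.64), Meg3 (-0.32), Cdkn1c (-0.0673), Peg3 (-0.21), Mest (0.37) and Grb10 (-0.31). In that fit it also turned for Igfbp5 (-0.70), Arid4a (-0.36), Tet3 (-0.24) and Dnmt1 (-0.36). The Dlk1 value is set by the prior count, since library 2 has 0 reads. Against the floor of 3 counts Dlk1 is at least 6.63-fold lower than the control mean, which rests mostly on control 2 (3.203 CPM). Control 3 (0.1228 CPM) lies below that floor (0.197 CPM), so for Dlk1 library 2 cannot be told apart from control 3. With library 2 alone the difference of effects also turned for Igf2 (-0.62), Meg3 (-0.40) and Peg3 (-0.0805). The difference for Igf2 was -0.0549 with offsets. Plagl1, near 0, gave 0.00268 without the filter, 0.0194 against all 6 controls and -0.13 to 0.15 with a library left out, and H19 in the Pkd1 line -0.112 to 0.039.

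Replicate numbers of the Pkd1 line are not given as a shared litter, batch or day. Correlations of same-numbered deviations were -0.045, -0.029 and -0.124, and those of differently numbered ones -0.0906 to 0.117. With so few libraries per group these values cannot show whether the numbers pair the libraries. With the replicate number as a block 0 members and 0 genes were called, as without it. The Cep120-line groups share 1 number, so no block was fitted there.

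Mean levels in the deposited CPM differed from the TMM-scaled ones by more than 1 SD for Peg3 in the Cep120-line controls (40) and Plagl1 in those controls (28.7), the Pkd1-line controls (30.4) and Pkd1 KO (33.3). As shares of TPM, group means of Mest-211 were 93.4, 93.9, 93.5 and 93%, of Plagl1-202 75.9, 80.5, 82.4 and 76.9%, and of Igf2-203 33.3, 50.2, 59.2 and 47.8% in labelled Cep120 KO, its controls, Pkd1 KO and its controls.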
